A study of Mus musculus with 4 samples.

Results

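Mouse genes whose symbol is Zfp followed by a number, the largest group of zinc finger genes by name, were described in bone marrow macrophages. A gene was a member if it had a protein-coding transcript and at least 1 TPM (a transcript abundance scaled for transcript length and library size) in every library. Of 364 such genes 201 passed. Zfp36, an mRNA-binding protein of another zinc finger class, was left out. The members were thus chosen by their TPM in the first of the authors' 2 deposited quantifications, so their level is a description and carries no test.

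The 4 polyA RNA-seq libraries form 1 group of C57BL/6J macrophages, cultured from bone marrow (BMDM). Per the descriptions, Lipid A (the TLR4-binding portion of lipopolysaccharide) was given at 100 ng/mL for 12 h, washed away for 12 h, and given again at 100 ng/mL for 60 min. Other label fields instead name lipoprotein A as the agent and mention no washing, so the labels conflict. All 4 libraries share this treatment, the strain and 1 donor identifier, the age and sex are given as not collected, and no untreated group is analysed here. Nothing below is therefore a response to treatment. The libraries are separate biosamples, but separate animals or cultures are not stated, so p-values measure only the spread between these libraries. Genes took 2.66e+07, 2.32e+07, 4.15e+07 and 3.49e+07 expected counts in replicates 1, 2, 3 and 4. Replicate 3 was the deepest library and had the highest share of TPM from the mitochondrial genome, 4.77% against 1.94% to 3.99% in the others. Its share from nuclear ribosomal RNA genes was the lowest, 1.29% against 2.69% to 7.14%. All 10 macrophage markers, among them Csf1r and Adgre1, reached 1 TPM in every library. Of 8 neutrophil markers 2 did, with a summed level of 12.7 to 133 TPM and Ly6g at 0, and none of the dendritic, T, B, NK, mast cell, erythroid or stromal markers did. In bulk RNA fewer cells with a message and less message per cell cannot be told apart.

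A C2H2 zinc finger is a short fold in which a pair of cysteines and a pair of histidines hold a zinc ion, and a row of fingers reads a stretch of DNA. Many of these proteins also carry a KRAB box, which binds the co-repressor TRIM28. TRIM28 brings the histone methyltransferase SETDB1 and heterochromatin proteins, and this machinery is known for silencing endogenous retroviruses and for keeping imprinted genes methylated. KRAB genes have multiplied in clusters during mammalian evolution, so neighbours can be nearly identical. Zinc finger proteins without KRAB are more diverse, and include activators, chromatin adaptors, ubiquitin ligases and RNA-binding proteins. A SCAN domain, found in some of them, lets proteins pair.

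Coding sequences of 3 kinds are shown because they define the family: a finger, a KRAB box, and a finger shared among neighbours. They were read from the GENCODE M21 transcripts on GRCm38 (mm10). In the first set capitals mark the codons of the zinc-binding cysteines and histidines in the first finger lying within 1 exon of Zfp263 (chr16:3748960-3749022, plus strand, exon 6 of 6), Zfp281 (chr1:136626063-136626125, plus strand, exon 2 of 2) and Zfp445 (chr9:122853399-122853461, minus strand, exon 6 of 6).
Zfp263: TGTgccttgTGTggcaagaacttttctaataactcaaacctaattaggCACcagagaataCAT
Zfp281: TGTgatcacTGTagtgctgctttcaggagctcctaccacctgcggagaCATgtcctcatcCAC
Zfp445: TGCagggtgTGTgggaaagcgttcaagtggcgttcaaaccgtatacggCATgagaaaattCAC
In each, the spacing between the cysteine codons and between the histidine codons was the same. The second set is from the KRAB A box of Zfp809 (chr9:22235032-22235070, plus strand) and Zfp991 (chr4:147176759-147176797, plus strand). Capitals mark codons of residues that the search pattern for this box fixes. They also mark the codon TTC, where the pattern allows phenylalanine or leucine.
Zfp809: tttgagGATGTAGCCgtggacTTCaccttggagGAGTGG
Zfp991: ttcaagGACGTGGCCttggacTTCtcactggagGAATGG
The third set is the first finger of Zfp991 (chr4:147178891-147178953, plus strand) and its closest stretch in Zfp993 (chr4:146657944-146658006, plus strand), Zfp992 (chr4:146466547-146466609, plus strand) and Zfp984 (chr4:147755613-147755675, minus strand), with capitals at bases that differ from Zfp991.
Zfp991: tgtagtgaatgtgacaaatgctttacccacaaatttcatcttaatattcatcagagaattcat
Zfp993: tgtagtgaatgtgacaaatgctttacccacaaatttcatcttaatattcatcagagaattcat
Zfp992: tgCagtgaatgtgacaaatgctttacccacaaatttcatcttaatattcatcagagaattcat
Zfp984: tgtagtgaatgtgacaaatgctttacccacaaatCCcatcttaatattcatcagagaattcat
Over these 63 bases Zfp993 did not differ from Zfp991, Zfp992 differed at 1 base and Zfp984 at 2, so a read lying wholly within these bases cannot tell Zfp991 from Zfp993.

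The zinc finger genes were expressed broadly and at low levels. The median member had 5.15 TPM, against 18.4 TPM for the 9692 genes that pass the same rule in the whole annotation. A mean of at least 10 TPM was reached by 45 members (22.4%), against 66.9% of all genes under the rule, and at least 100 TPM by 1 member. Together the members held 1636, 1941, 2175 and 1661 TPM in replicates 1 to 4. Of the genes that did not qualify, 46 reached 1 TPM in some libraries, 117 in none, and 27 had no count anywhere. Genes just inside the rule were Zfp808, Zfp873, Zfp287, Zfp59 and Zfp605, whose lowest libraries held 1.00 to 1.04 TPM. Just outside lay Zfp970, Zfp3, Zfp341, Zfp623 and Zfp951, whose lowest libraries held 0.93 to 0.98 TPM.

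**Figure D1:**
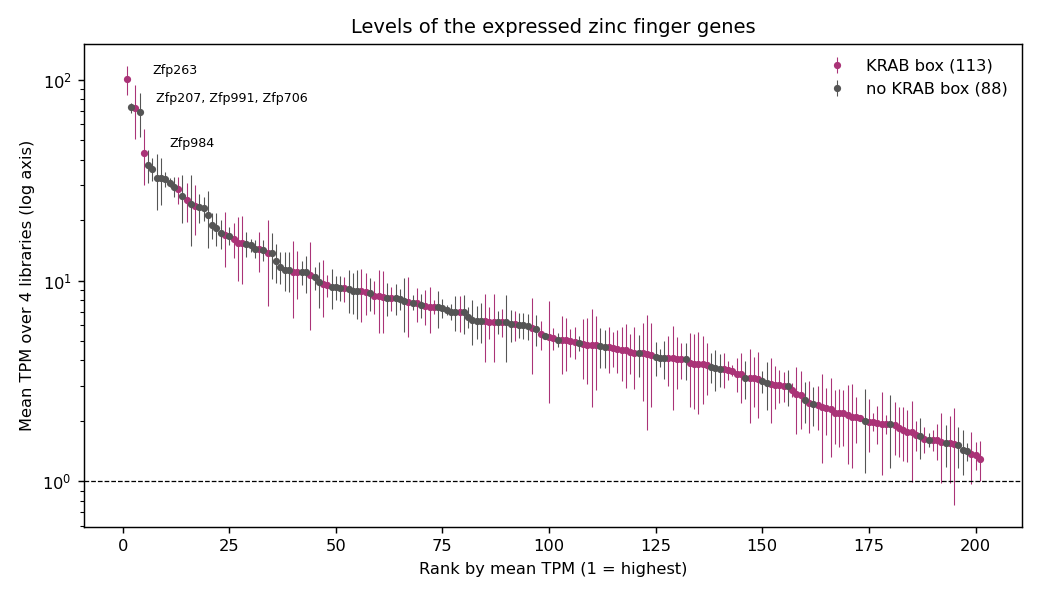
Mean TPM of each of the 201 zinc finger genes on a log axis against its rank, coloured by whether a KRAB box was found. Bars are the SD over 4 libraries, and the dashed line is the 1 TPM limit. Most genes lie between 1 and 10 TPM, with 45 above.

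Zfp263, a DNA-binding factor with both a SCAN domain and a KRAB box, was the most abundant (ENSMUSG00000022529.11, chromosome 16, 3744093 to 3750790). It had 82.4, 93.8, 105 and 121 TPM in replicates 1 to 4, a mean of 101 ± 16.6 TPM (SD, n = 4). Zfp207, also called BuGZ, which helps chromosomes attach to the spindle (chromosome 11, 80383279 to 80405733), had 76.4, 75.6, 72.0 and 67.3 TPM. Its libraries lay close together, at 72.8 ± 4.17 TPM. Zfp991, a KRAB gene of a chromosome 4 cluster (147132038 to 147180579), had 54.4, 78.4, 100.0 and 56.5 TPM. Zfp706, a small protein that mouse embryonic stem cells need to leave self-renewal, had 65.9, 61.0, 93.3 and 55.0 TPM. In both, replicate 3 stood above the other libraries. Zfp984, another KRAB gene of chromosome 4, had 30.1, 46.9, 60.7 and 35.6 TPM, again highest in replicate 3. The means of Zfp207, Zfp991 and Zfp706, from 68.8 to 72.8 TPM, differed by less than the SD of Zfp991 (21.4) and of Zfp706 (16.9), so their order is not settled.

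**Figure D2:**
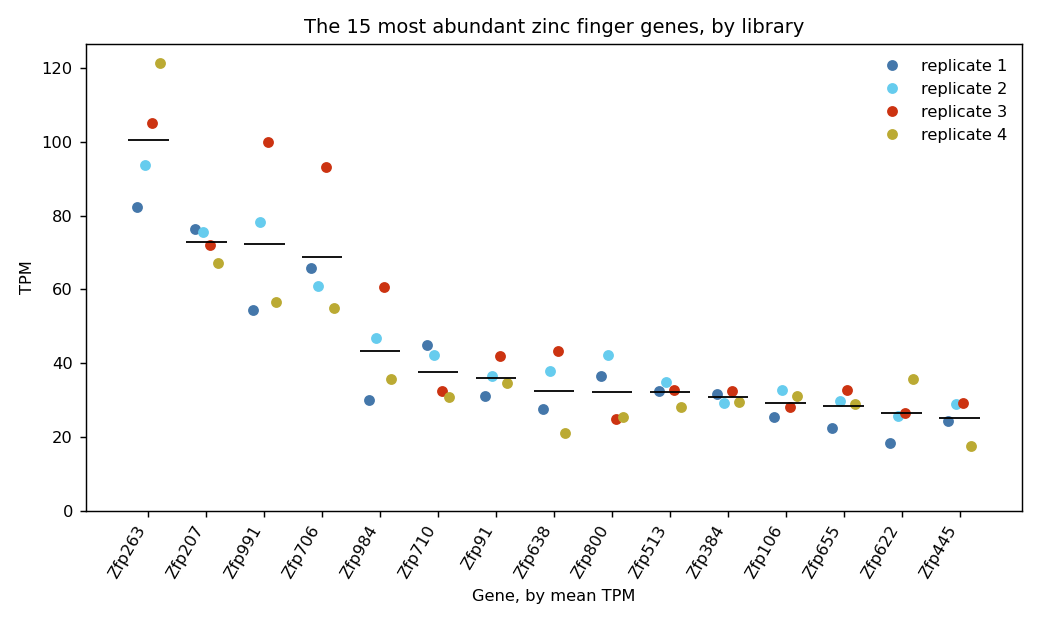
TPM of the 15 most abundant zinc finger genes in each of the 4 libraries (points, coloured by replicate), with the mean as a bar. Replicate 3 is the highest library for 8 of the 15, while Zfp263 and Zfp622 are highest in replicate 4.

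The rest of the 15 most abundant genes held 25.1 to 37.6 TPM on average. Zfp710 had 37.6 ± 6.98, Zfp800 32.3 ± 8.54, Zfp513 32.1 ± 2.83 and the KRAB gene Zfp655 28.5 ± 4.41 TPM (SD, n = 4 each). Zfp91, Zfp638, Zfp384, Zfp106, Zfp622 and Zfp445 complete them and appear with their roles next. KRAB genes made up 5 of the 15, and 10 had no KRAB box.

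Genes with roles in protein and ribosome turnover were all present. Zfp91, a ubiquitin ligase linked to noncanonical NF-kB signalling, had 31.04, 36.45, 41.99 and 34.49 TPM in replicates 1 to 4. Zfp622, whose human form acts in assembly of the large ribosomal subunit, had 18.3, 25.7, 26.4 and 35.7 TPM. It was lowest in replicate 1 and highest in replicate 4. Zfp598, the ligase that marks collided ribosomes, had 6.57 ± 0.788, the SUMO ligase Zfp451 6.01 ± 0.844 and the ribosome assembly factor Zfp593 5.08 ± 0.406 TPM. None of the 5 varied past the threshold of the test described further on.

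All 6 listed genes of mitosis and RNA processing were members, from 6.19 to 72.8 TPM on average. Zfp638, known as NP220 and for silencing unintegrated retroviral DNA, had 27.5, 37.9, 43.4 and 21.1 TPM in replicates 1 to 4. The highest library held about double the lowest. Zfp106, an RNA-binding protein needed by mouse motor neurons, had 25.3, 32.8, 28.1 and 31.1 TPM. Zfp830, a factor in DNA damage and splicing, had 11.7 ± 2.08, the double-stranded RNA binding Zfp346 7.36 ± 1.54, and Zfp326, which links transcription to splicing, 6.19 ± 2.27 TPM.

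Promoter and enhancer factors were likewise all present, at a median of 15.2 TPM. Zfp384, also called Nmp4, had 31.6, 29.3, 32.5 and 29.6 TPM and barely moved between libraries. Zfp281, a pluripotency factor that also acts in differentiated cells, had 35.3, 20.9, 27.1 and 13.2 TPM, so replicate 1 was far above replicate 4. Zfp131 had 18.9 ± 2.86 and Zfp148, which binds GC-rich promoters, 15.2 ± 2.13 TPM. Zfp410, an activator of the chromatin remodeller gene Chd4, had 12.5 ± 2.73, the promoter factor Zfp143 10.4 ± 1.37 and Zfp335 5.92 ± 0.881 TPM. Chd4 itself had 79.5 ± 8.32 TPM.

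Of 12 chromatin adaptors 9 were members, at a median of 7.14 TPM. Zfp644, a partner of the G9a methyltransferase complex, had 9.82, 12.2, 14.5 and 8.79 TPM in replicates 1 to 4, and Zfp516, a CtBP-binding factor, had 12.3, 13.3, 7.99 and 10.3. Replicate 3 was the highest library for the first and the lowest for the second. Zfp217 had 8.85 ± 2.40 and Zfp687 7.77 ± 0.663 TPM. Its partner Zfp592 had 7.14 ± 0.384 TPM, and Zfp292 had 4.15 ± 0.789. Zfp318, which controls IgD splicing in B cells, had 4.14 ± 0.442 and Zfp609 3.14 ± 0.397 TPM, while Zfp608 was lowest at 1.61 ± 0.127. Zfp462, Zfp532 and Zfp827 did not qualify.

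Among 12 listed silencers of retroviral elements and imprinted genes 5 were members, all of them KRAB genes. Zfp445, which keeps imprinted genes methylated, had 24.4, 29.0, 29.3 and 17.7 TPM in replicates 1 to 4. Zfp809, which recruits TRIM28 to murine leukaemia virus through its primer binding site, had 6.94, 9.19, 11.5 and 7.59 TPM. Zfp932, a repressor of endogenous retroviruses, had 10.4, 8.33, 17.6 and 6.18 TPM. Replicate 3 held the highest value for each of these. Zfp992 had 16.8 ± 5.12 and Zfp961 4.42 ± 0.973 TPM. Zfp57, the other well-known imprint keeper, did not qualify, nor did Zfp459, Zfp568, Zfp708, Zfp980, Zfp981 and Zfp982. For innate immunity Zfp64, which promotes Toll-like receptor responses in mouse macrophages, had 6.01 ± 0.911 TPM and Zfp91 is given above, while Zfp30 did not qualify.

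The co-repressors that KRAB proteins work through were present too. Of 28 listed genes 27 were measured and 26 reached 1 TPM in every library, at a median of 24.2 TPM. Trim28 had 35.7, 43.2, 50.2 and 48.1 TPM in replicates 1 to 4, and Setdb1 had 15.3, 18.2, 20.4 and 19.2. By TPM 11 of the 27 had their highest library in replicate 3, where 33.8% of all genes under the rule did. By CPM, the scale used for the counts by library further on, 8 did (29.6%, near the 27.9% of all genes under the rule), and Trim28 was highest in replicate 4. In the edgeR test of variation none of the 27 passed, where 2.49% of genes did. Of the 27, 1 had an unadjusted p under 0.05, where 7.71% of all genes did. With DESeq2's dispersion trend 1 passed, where 2.97% of all genes did. Between the 2 quantifications, compared further on, 4 of the 27 were called, all lower in the second. Over all genes 15.1% were called, with 6.58% lower and 8.57% higher in the second. Trim28 was among them, at -0.64 log2 units (limma adjusted p 0.000178). These differences are not centred, and the second quantification was lower over all genes, with a median difference of -0.29.

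A KRAB box was found in 113 of the 201 members and a SCAN domain in 10, of which 7 had both. By level alone, 113 of 229 KRAB genes (49.3%) and 88 of 135 others (65.2%) had qualified. KRAB members had a median of 4.27 TPM and 15 of them reached 10 TPM, against a median of 7.45 TPM and 30 genes among the members without KRAB. Matches to the finger pattern numbered 11 in the median KRAB member and 7 in the median member without. Zfp142 had the most, with 36, and 3 members, Zfp330, Zfp703 and Zfp839, had no match. KRAB members lay beside other Zfp genes more often by count: 94 of 113 had another within 200 kb, against 28 of 88 others. They also had a lower GC content in the leading transcript, with a median of 40.8% against 51.6% for the other members and 50.05% for all genes under the rule.

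Most KRAB members had their highest level in the same library. By CPM (counts scaled to library size but not to length, TMM-normalised in edgeR), replicate 3 was the highest library for 90 of 113 KRAB members (79.6%), against 39 of 88 members without KRAB (44.3%). Among all 9676 genes under the rule with a CPM value it was the highest for 27.9%. The median KRAB member stood 0.54 log2 units above the mean of the other 3 libraries in replicate 3, at 0.03 in replicate 2, at -0.25 in replicate 1 and at -0.34 in replicate 4. For members without KRAB these medians were 0.14, 0.07, -0.04 and -0.17, and for all genes under the rule 0.02, -0.01, -0.01 and 0.01. Replicate 4 was the lowest library for 56 KRAB members (49.6%) and replicate 1 for 41 (36.3%), where the shares over all genes are 25.2% and 28.4%. Among members without KRAB these shares were 46.6% and 29.5%. Of 1618 other genes within the middle range of KRAB GC content, 56.9% were lowest in replicate 4. A low replicate 4 was thus not particular to KRAB members. In summed TPM the 113 KRAB members had 656, 848, 1058 and 725 in replicates 1 to 4, while the 88 others had 979, 1093, 1117 and 936. No test is given for this pattern, since it was noticed in these values.

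**Figure D3:**
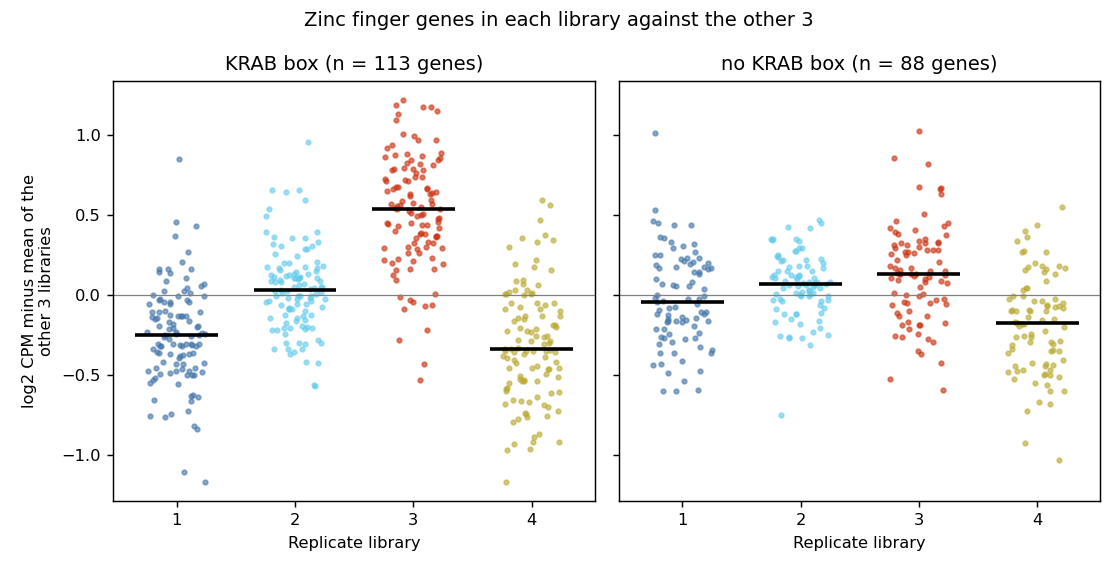
Each point is a member's log2 CPM in a library minus its mean in the other 3 libraries, for 113 genes with a KRAB box (left) and 88 without (right). Bars are medians: with KRAB they are 0.54 in replicate 3 and -0.34 in replicate 4, without it 0.14 and -0.17.

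Zfp90, a KRAB gene, had 19.55, 15.61, 34.76 and 17.99 CPM in replicates 1 to 4. Zfp97 had 5.69, 7.72, 14.8 and 6.09 CPM and Zfp958 had 3.88, 3.99, 9.00 and 3.93 CPM. These examples were chosen after their values were seen. In all 3 genes replicate 3 held about double the others. For 8 KRAB members it lay at least 1 log2 unit above the mean of the other libraries. Some KRAB members went the other way: Zfp558 had 2.57, 1.34, 1.20 and 1.63 CPM, and Zfp263 had its highest CPM in replicate 4.

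The same library was highest for most KRAB genes outside the rule. Of 45 genes with a KRAB box, at least 2 fingers and another kind of name, such as Gm14325 and Gm13212, 40 were highest in replicate 3 (88.9%). Of 53 KRAB Zfp genes too low for the level rule but with enough counts for the test, 39 were (73.6%), and of 17 such genes without KRAB 11 were (64.7%). Both sets were chosen by a TPM under 1 in at least 1 library. Replicate 3 had the most Zfp genes at 1 TPM, 243 against 210, 230 and 213 in replicates 1, 2 and 4. These 2 shares therefore depend on the choice and carry no support, and no share over all genes under the limit is given. Zbtb genes, which carry a BTB domain, had 13 of 27 highest in replicate 3, and Zscan and Zkscan genes 8 of 12. Of 112 genes under the rule with at least 2 fingers and no KRAB that are not members, 30 were (26.8%). These sets overlap: Zkscan genes such as Zkscan3 are also among the 45, and Zbtb genes were not excluded from the 112. Replicate 3 is also the deepest library and the one with the most mitochondrial RNA. Genes of low GC content tended the same way: of 1618 other genes within the middle range of KRAB GC content, 783 (48.4%) were highest in replicate 3, with a median of 0.17 log2 units. After each library was centred within 20 bins of GC content, a step chosen after seeing the data, 79 of 113 KRAB members (69.9%) were highest in replicate 3, with a median of 0.39. Of all genes 25.4% were, and of the other genes of like GC content 26.0%. The centring medians came from expressed genes other than members and KRAB genes, so both of these shares follow largely from the step. The part of GC content, of depth and of mitochondrial share in this pattern was not tested.

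**Figure D4:**
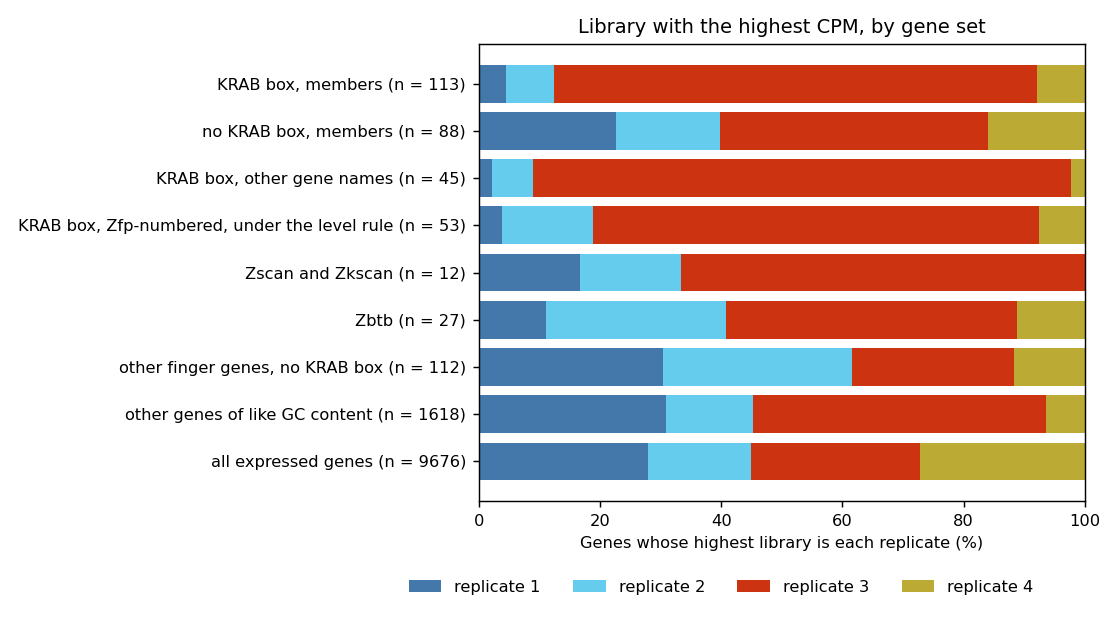
Bars give the share of genes in each set whose highest CPM lies in replicate 1, 2, 3 or 4. The sets overlap in part. Replicate 3 takes 79.6% of KRAB members and 88.9% of KRAB genes with other names, against 27.9% of all expressed genes.

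A test of variation in edgeR compared each gene's deviance over the 4 libraries with the dispersion typical at its abundance. Of 201 members 1 passed at an adjusted p of 0.05, Zfp281, where 291 of 11679 genes passed (2.49%). Zfp281 had 124, 63.6, 84.6 and 42.7 CPM in replicates 1 to 4. Replicate 1 was highest and replicate 4 lowest, and edgeR gave an adjusted p of 0.019. Its call was lost without replicate 1, 2 or 4, at adjusted p values of 0.443, 0.0597 and 0.599, and held without replicate 3 at 0.0158. With DESeq2's dispersion trend 1 member passed, where 2.97% of genes did. At an unadjusted p under 0.05 there were 10 members (4.98%), below the 7.71% of all genes, and after Zfp281 the smallest were those of Zfp160, Zfp90 and Zfp68, all highest in replicate 3 (edgeR adjusted p 0.282, 0.288 and 0.353). No KRAB member passed with edgeR's or with DESeq2's dispersion trend, where the deviance test itself was the same. With edgeR's trend 9 of 113 had an unadjusted p under 0.05. A p that misses the threshold does not show that a gene's libraries were alike.

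By the deposited records, replicates 3 and 4 came from 4 read files each and replicates 1 and 2 from 6, and this technical difference was tested. No member differed between libraries with 4 and with 6 read files in edgeR's quasi-likelihood test, nor did any of 12667 genes (0%), while 5 members and 897 genes had an unadjusted p under 0.05. DESeq2 called 103 genes (0.813%) and no member. The smallest p among members was that of Zfp395, which was higher with 4 read files by 0.93 ± 0.21 log2 units (SE; edgeR adjusted p 0.63).

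Clusters of Zfp genes, joined where neighbours lay within 200 kb, differed in how many of their genes were expressed. A cluster on chromosome 17 (21383748 to 22456689 in mm10) had 13 of its 18 genes as members, led by Zfp943 and Zfp758, and 11 of the 13 were highest in replicate 3 by CPM. The cluster on chromosome 13 (67038596 to 67827002) had 10 of 19, led by Zfp429 and Zfp87, and all 10 were highest in replicate 3. On chromosome 7 (29768552 to 30169750) 6 of 15 were members, all highest in replicate 3. Of other clusters on chromosome 7, the one at 4915217 to 5053723, where no gene has a KRAB box, had 1 of 5 members highest there. The one at 6131491 to 6396915, where 4 of 6 genes have a KRAB box, had 1 of 3. On chromosome 17 at 32765496 to 33110705, where all 8 genes have one, 2 of 4 members were highest in replicate 3. On chromosome 9 the cluster at 22055411 to 22307648 had 1 of 3 and that at 20345136 to 20605409 had 5 of 5. One on chromosome 8 (69610857 to 69791178) had 4 of 4. Replicate 3 was highest for 79.6% of KRAB members and 27.9% of all genes under the rule. By summed TPM the cluster on chromosome 4 (146971976 to 147848366) came first with 3 of its 10 genes, Zfp991, Zfp984 and Zfp933. Their sum was 86.5, 129, 165 and 94.5 TPM in replicates 1 to 4. The other 7, Zfp534, Zfp978, Zfp979, Zfp982, Zfp985, Zfp988 and Zfp989, did not qualify.

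On chromosome 4, 4 members shared at least 50% of their leading transcript with other genes, so their levels are reported as uncertain. Every stretch of 31 bases in a gene's leading transcript was looked for in transcripts of all other genes. It was found elsewhere for 92.7% of Zfp991, 92.0% of Zfp993, 73.5% of Zfp984 and 51.0% of Zfp992. Zfp991 shared 76.6% of its stretches with the pseudogene Znf41-ps and 72.6% with Zfp992, and Zfp984 shared 64.1% with Gm13212 but only 12.4% to 15.1% with Zfp991, Zfp992 and Zfp993. The authors' posterior SD was 0.598% of the count for Zfp984, 1.12% for Zfp991, 1.24% for Zfp992 and 3.48% for Zfp993. Znf41-ps itself had 47.2, 57.5, 93.1 and 45.4 TPM, and Gm13212 had 18.3, 33.9, 39.1 and 21.8, so both moved like the members beside them. Zfp993 had 16.8, 26.3, 31.2 and 19.3 TPM. Zfp933, which shared none with these neighbours, was low at 1.99, 3.28, 4.47 and 2.42 TPM, and it too was highest in replicate 3.

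Sharing was common among the members as a whole. At least 50% of the leading transcript was shared by 19 members (9.45%), of which 18 were KRAB genes, against 5.36% of all genes under the rule. Of the 19, 5 lay on chromosome 2 and 4 on chromosome 4. Zfp97 (89.8% shared, posterior SD 1.83% of the count) and Zfp932 (73.5%, 0.845%), given by library above, were also among the 19. Their levels are thus uncertain too. Zfp973 and Zfp965 of chromosome 2 had no stretch of their own, with 100% shared. The authors' quantification gave posterior SDs of 37.2% and 61.0% of the count for these, so their means of 4.13 and 2.72 TPM are poorly fixed. No shared stretch was found in 56 members (27.9%), against 53.6% of all genes under the rule. Among the 8 KRAB members with none, 6 were highest in replicate 3 by CPM, against 79.6% of all KRAB members and 27.9% of all genes under the rule. In replicate 3 their median was 0.33 log2 units above the other libraries, against 0.54 for all KRAB members. The part of sharing in that pattern was not tested.

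The authors' second quantification, derived from the read files and an index per the deposited readme, was set against the first as the log2 difference of TPM, second minus first. Its scale was lower over all genes, with a median difference of -0.29, and the median member had -0.27. The shift differed between libraries, with member medians of -0.39, -0.58, -0.01 and -0.11 in replicates 1 to 4. Under limma, with a call at an adjusted p of 0.05 and a difference of at least 0.5, 1 of 201 members was called, against 1863 of 12300 genes (15.1%; 8.57% higher and 6.58% lower in the second). It was Zfp61, a KRAB gene, with differences of -0.75, -1.19, -0.16 and -0.31 in replicates 1 to 4. Its mean was -0.60 ± 0.23 (SE; limma adjusted p 0.0356), and it fell to -0.31 with an adjusted p of 0.0684 once each library was centred on the median difference of all genes. The call was also lost without replicate 1, 2 or 4, at limma adjusted p values of 0.296, 0.226 and 0.0980. With that centring 2 others were called (0.995% of members, against 11.4% of all genes), Zfp965 at 0.55 and Zfp180 at 0.52. The middle 50% of members lay between -0.33 and -0.16, close to the -0.36 to -0.15 of all genes tested, which did not have to reach 1 TPM.

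**Figure D5:**
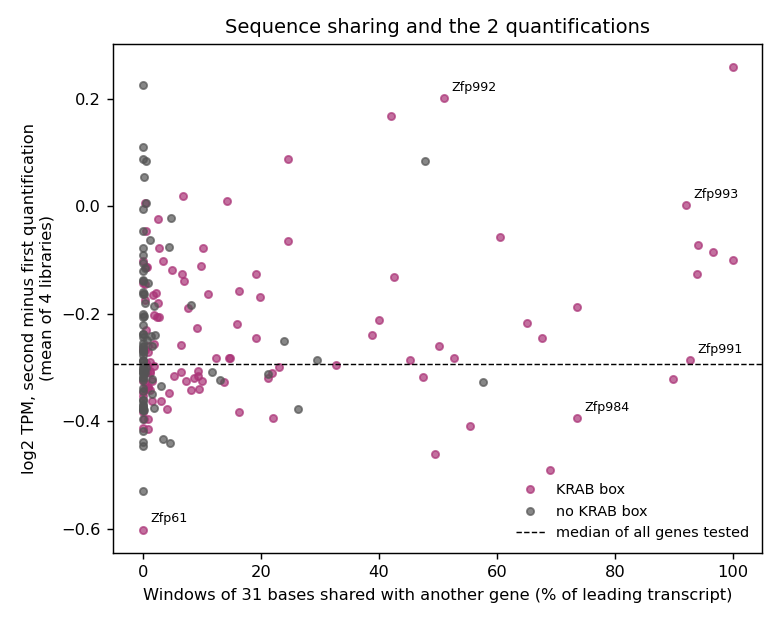
Mean log2 TPM difference, second minus first quantification, of each member against the share of 31-base stretches its leading transcript has in common with another gene. The dashed line is the median of all genes tested (-0.29). Zfp61 at -0.60 is the lowest point, and the 19 genes with at least 50% shared lie between -0.49 and 0.26.

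Transcript usage was described from the share of each transcript within its gene. The leading transcript of the median member held 69.1%, against 81.7% for all genes under the rule. The same transcript led in every library for 159 members (79.1%), against 85.3% of all genes, and it changed for the rest. Zfp263 was one of these: Zfp263-201 held 62.4%, 49.8%, 32.9% and 39.5% in replicates 1 to 4, and Zfp263-207 held 31.9%, 40.6%, 63.1% and 54.6%. The first of them led in replicates 1 and 2 and the second in replicates 3 and 4, which is also the split by read files. Zfp281-201 held 51.4%, 32.1%, 77.0% and 67.8%, and Zfp281-202 the rest. Zfp638, Zfp467, Zfp787 and Zfp90 also changed their leading transcript. The spread between libraries was wide: the SD of Zfp263-201 was 12.9 and that of Zfp281-201 19.7 percentage points.

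Protein-coding transcripts held a median of 98.2% in members and 97.4% in all genes under the rule. In 11 members (5.47%) a transcript without that class led, against 5.63% of all genes. By classes of the annotation 5 were targets of nonsense-mediated decay, 4 retained introns and 2 processed transcripts. Zfp846 had the lowest protein-coding share, 17.4%, since Zfp846-203, a decay target, held 90.4%, 74.8%, 76.1% and 60.1% in replicates 1 to 4. Zfp938 followed at 30.9%, with its decay target Zfp938-202 at 61.1%, 90.8%, 66.2% and 58.5%. Zfp26 (32.1%), Zfp865 (32.9%), Zfp579 (36.6%) and Zfp672 (38.5%) were the next lowest. In Zfp865 the retained-intron transcript Zfp865-203 held 55.3%, 54.9%, 56.1% and 55.9%, so its share was steady between libraries. In these genes the gene's TPM is mostly that of transcripts outside the protein-coding class.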

How the data were processed

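PolyA RNA of 4 libraries of 1 group was measured. Per the file headers, the authors deposited an expected count per gene and transcript, not normalised, in a first quantification whose column names are those RSEM writes, and in a second whose names are those kallisto writes. The deposited TPM is scaled by the authors for transcript length and to the same total in each library. Transcript shares within a gene were deposited in percent. The deposited posterior SD and mean of a count are treated as a score of how well a gene is fixed. GENCODE M21 on mm10 is what the deposited readme names, while programs are not given in the sources used here.

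From these, expected counts were rounded and tested with edgeR 4.0.16 in R 4.3.3 (TMM after filterByExpr, with Benjamini-Hochberg adjustment over all genes at 0.05), DESeq2 1.42.0 and limma 3.58.1 (log2 of TPM + 0.1). CPM values had 0.1 added before log2. KRAB and SCAN calls are profile matches (pyhmmer 0.12.3, E up to 0.001) to translated coding sequences. A count of 0 allows up to 3 counts, 0.0724 to 0.129 CPM by library, and such limits cover counting error only. The edgeR tests were checked on simulated counts, and the limma test on TPM with simulated noise. In that check the edgeR tests missed most 2-fold changes. Named genes are the 15 most abundant, those nearest the rule, those called, those with the lowest protein-coding share, changing leads, and role lists. The members and lists were chosen with earlier results of these data known.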

Additional observations from a re-analysis of the deposited data

Results flagged for a closer look

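Among 75 members named in the text, 19 of them named after their values were seen, the highest or lowest library stood far from the others in 6 (8.0%). Chance alone marks about 1 gene in 20, and 5.26% of all genes under the rule and 7.46% of all members were marked, so 6 of 75 is near the background. The measure is the gap to the nearest library divided by the whole range of CPM, marked where it passes Dixon's 95% critical value for 4 samples. Zfp958, a KRAB gene, had 3.88, 3.99, 9.00 and 3.93 CPM in replicates 1 to 4, with replicate 3 highest (0.979). Zfp91, the NF-kB linked ubiquitin ligase, had 123, 124, 148 and 126 CPM, with replicate 3 highest (0.884). Zfp932, the retroviral repressor, had 6.53, 6.38, 13.7 and 5.45 CPM, also highest in replicate 3 (0.868). The KRAB gene Zfp61 had 1.94, 1.89, 2.70 and 2.02 CPM, again highest there (0.836). Zfp180 had 13.8, 18.8, 13.6 and 14.4 CPM, with replicate 2 highest (0.845). Zfp318, the IgD splicing regulator, had 16.1, 21.5, 21.6 and 22.0 CPM, with replicate 1 lowest (0.918).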

How the results depend on the processing

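No paired analysis was possible because there is 1 group. The number of members was 237 with a limit of 0.5 TPM, 155 with 2 TPM, 187 in the second quantification, 208 with rescaled TPM and 201 to 209 with a library left out. With the second quantification the median share of the leading transcript moved to 65.0% and that of protein-coding transcripts to 95.8%. Leaving out a library gave 0 to 1 members that varied, where 1.12% to 1.82% of genes did, and 0 to 7 that differed between quantifications. All 7 (3.48% of members, against 20.0% of genes), among them Zfp263, Zfp644 and Zfp593, were lower in the second, without replicate 3. Pseudocount 1 and no filter each gave 0, and centring 2. The count highest in replicate 3 among KRAB members, with alternatives chosen after seeing the data, was 79 to 108 over 6 other scalings. It was 83 by TPM, where replicate 3 was highest for 33.8% of all genes too. In the second quantification it was 108, where replicate 3 was highest for 61.2% of all genes too. With replicate 1, 2 or 4 left out it was 92 to 98. The share of all genes is not given for these, and it cannot be lower than with all 4 libraries. By CPM it was 62 of 77 among those at 2 TPM and 25 of 29 at 5 TPM, against 27.9% of all genes under the rule. Without replicate 3 the count has no value. Depth behind the members was lower than behind other genes: the median of the lowest expected count over libraries was 202 for members, against 608 for all genes under the rule.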
